A study of Mus musculus with 15 samples.

Results

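Within the cells that bound neither annexin V nor propidium iodide (PI), double-negative replicates 1-3 were compared with double-negative replicates 4-6. The members are 6 of the 15 samples of the series, set by sort label and replicate number. A haemoglobin difference between the sets was already known at that time. All 15 came from the E11.5 medial cortex of C57BL/6 mice, with no genotype or treatment named. Annexin V binds phosphatidylserine on the outer membrane face, and PI enters cells with a broken membrane, so the gate holds cells with neither sign of dying. Another 6 bulk libraries, AnnexinV-positive and PI-negative, carry the same replicate numbers 1-3 and 4-6 and serve as a second gate for comparison, and 3 samples with no sort label are not analysed here. The libraries are modified smart-seq2 libraries, which amplify cDNA from small inputs. The labels name no litter, embryo, sort day or batch that would set replicates 1-3 apart from 4-6, and do not say that libraries came from separate embryos, so the p-values rest on library-to-library spread, which may be technical.

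Early embryonic blood is dominated by primitive red cells, large nucleated cells that leave the yolk sac and mature in the circulation. They make embryonic globins first (zeta, encoded by Hba-x, with epsilon-y and beta-h1, encoded by Hbb-y and Hbb-bh1) and adult-type alpha and beta globins increasingly later. Red-cell genes are switched on by factors such as GATA1, which binds the letters GATA, and KLF1, which binds CACCC motifs. The E11.5 cortex itself holds radial glia, which divide, and the first young neurons and Cajal-Retzius cells.

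Total counts were 306237, 321494 and 88193 in double-negative replicates 1, 2 and 3, against 176913, 176042 and 329813 in replicates 4, 5 and 6. The number of genes with a count overlapped between the sets, 6571 to 8887 in replicates 1-3 and 6759 to 8632 in replicates 4-6. The shallowest library, replicate 3, resolves least: 1 count there is worth 10.8 CPM (counts per 1000000 counts, scaled by TMM), against 2.70 CPM in replicate 6. Within a set, pairs of libraries differed by 4.44 to 13.8 in chi-square per degree of freedom, so none was a copy of another. The cortical label was checked on Emx1, a dorsal cortical factor, which had 3 to 14 counts in replicates 1-3 and 4 to 18 counts in replicates 4-6.

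Red-cell transcripts filled a large share of replicates 1-3. Haemoglobin genes took 11.998%, 30.8% and 12.3% of all counts in replicates 1, 2 and 3, with 95% exact binomial intervals of 11.9% to 12.1%, 30.6% to 30.9% and 12.05% to 12.5%. In replicates 4, 5 and 6 they had 1, 1 and 0 counts. Intervals cover counting error only. In the second gate, AnnexinV-positive replicates 1-3 had 4, 10 and 26 haemoglobin counts and AnnexinV-positive replicates 4-6 had 0, 4 and 2. In bulk libraries fewer red cells and less red-cell RNA per cell cannot be told apart. The haemoglobin difference was known when the sets were chosen, so the globin values are a description. The p-values of other red-cell genes may not be independent of that choice. The globins stayed in the fit across all genes, and nothing is supported by their calls there.

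**Figure D1:**
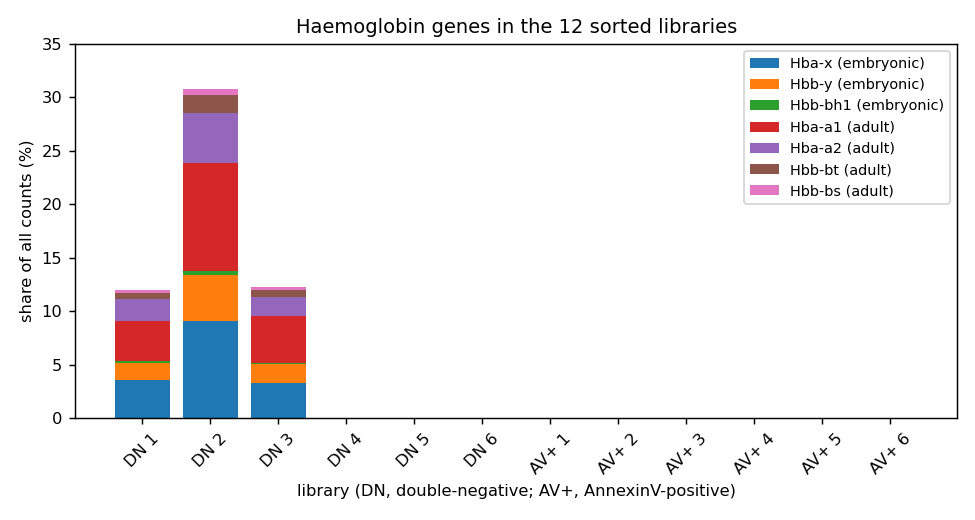
Share of all counts, in percent, taken by each of 7 haemoglobin genes (colours) in the 12 sorted libraries, double-negative (DN) and AnnexinV-positive (AV+). The stacks reach 11.998%, 30.8% and 12.3% in double-negative replicates 1, 2 and 3 and cannot be seen in any other library.

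The make-up of the globins varied by a few percentage points between replicates 1, 2 and 3, whose totals differed far more. Embryonic chains made up 44.1%, 44.7% and 42.3% of haemoglobin counts, and alpha-type chains 78.5%, 77.7% and 76.9%. Hba-x, the embryonic zeta chain, had 10950, 29321 and 2899 counts in replicates 1, 2 and 3 and 0 counts in replicates 4, 5 and 6. That was 37.9%, 38.1% and 34.9% of the alpha-type counts, the lowest share being that of replicate 3. Hbb-y, the embryonic epsilon-y chain, had 4736, 13708 and 1546 counts in replicates 1-3, against 1, 0 and 0 in replicates 4-6. Together with Hbb-bh1, which had 534, 1202 and 126 counts in replicates 1-3 and none in replicates 4-6, embryonic chains were 66.9%, 67.7% and 66.9% of the beta-type counts. Of the adult-type genes, Hba-a1 had 11639, 32472 and 3817 counts in replicates 1-3 and 0, 1 and 0 in replicates 4-6. Hba-a2 had 6271, 15067 and 1602 counts in replicates 1-3 and none in replicates 4-6. Hbb-bt had 1831, 5388 and 574 counts, and Hbb-bs 780, 1713 and 252, in replicates 1-3, with none in replicates 4-6. Hba-a1 and Hba-a2 are near-identical copies, as are Hbb-bs and Hbb-bt, so the split within each pair is uncertain. Hbb-bh2 had 1 count, in replicate 2, and Hbb-bh0 and Hbb-bh3 had none in the 6 libraries.

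Across all genes, 23 of 3097 tested genes passed edgeR's quasi-likelihood test at an adjusted p of 0.05, which is 0.743% of them. Of these, 22 were higher in replicates 1-3 (0.71% of tested genes) and 1, Cdkn1a, was lower (0.0323%). Without adjustment 186 genes had a p under 0.05. The 22 are the 7 globins, 7 further members of the red-cell and haem lists (Car2, Slc4a1, Fth1, Slc25a37, Fech, Alas2, Ube2l6) and 8 genes outside those lists (Hsd3b6, Adra2b, Ctse, H2ac18, Creg1, Gpx1, Pkhd1l1, Lgmn). No gene of the neural lists passed. In all 22 every library of replicates 1-3 was above every library of replicates 4-6, as in 7.17% of tested genes; choosing genes by this difference favours that, and nothing is read from it. Of the 22, 15 had no count at all in replicates 4-6 and 4 had 1 to 3 counts, so these entered the test only through replicates 1-3 and a difference was built in. Their fold limits, ratios and adjusted p values are given below as a description only. The other 3, Fth1, Gpx1 and Slc25a37, had counts in both sets. Slc25a37 had only 7, 0 and 4 counts in replicates 4, 5 and 6, each under the filter's minimum count of 10. It also entered the test only through replicates 1-3, so its values are a description.

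**Figure D2:**
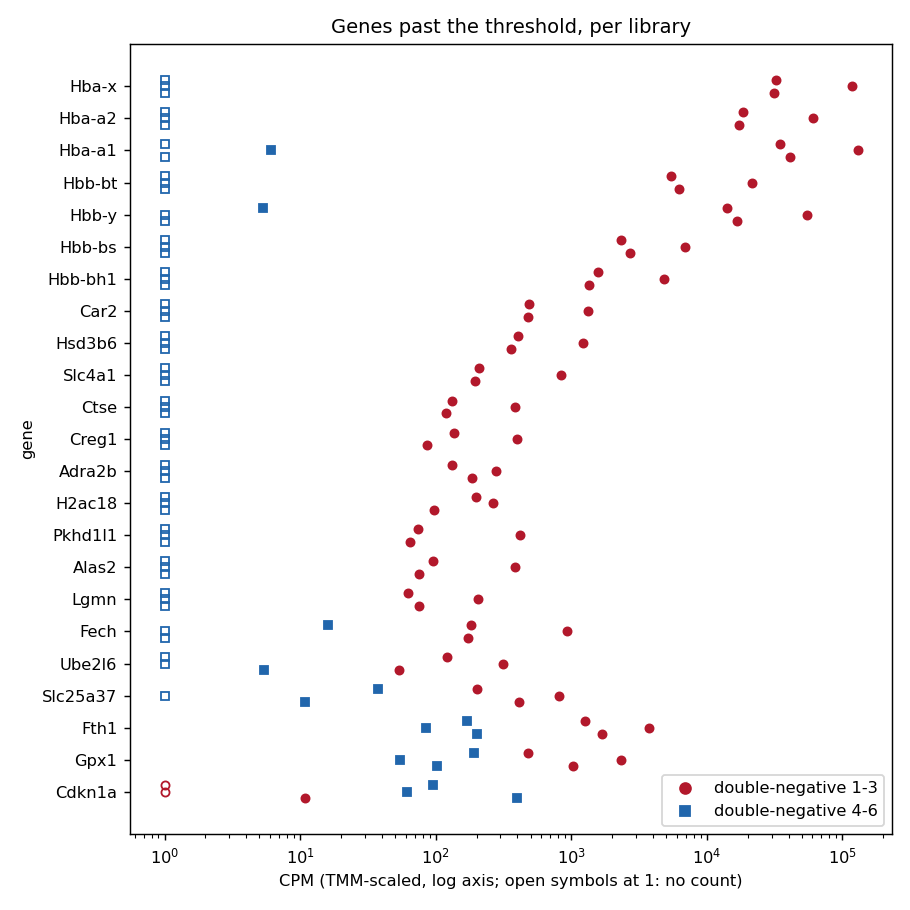
TMM-scaled CPM on a log axis for the 23 genes past the threshold, 1 symbol per library, double-negative replicates 1-3 as circles and 4-6 as squares. Open symbols placed at 1 mark libraries with no count, and Fth1, Gpx1 and Slc25a37 are the higher genes with more than 3 counts in replicates 4-6.

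Membrane and gas-transport genes of the red cell were among the largest differences outside the globins. Car2, the cytosolic carbonic anhydrase that hydrates carbon dioxide (chromosome 3, 14886269 to 14900770), had 163, 334 and 44 counts in replicates 1, 2 and 3, against 0, 0 and 0 in replicates 4, 5 and 6. Taking 3 counts over the group as the limit a count of 0 allows, it was at least 192-fold higher in replicates 1-3 (adjusted p = 7.00e-05). Slc4a1, the anion exchanger band 3 of the red-cell membrane (chromosome 11, 102348820 to 102365281), had 70, 209 and 18 counts in replicates 1-3 and none in replicates 4-6, at least 105-fold higher (adjusted p = 0.00134). Replicate 2 was the highest in each of these genes, as it was for the globins. Counted per 1000 haemoglobin counts, Car2 stood at 4.44, 3.38 and 4.07 in replicates 1, 2 and 3, and Slc4a1 at 1.91, 2.11 and 1.66. Over the 15 higher genes other than globins, the highest of the 3 libraries was 1.21-fold (Hsd3b6) to 2.73-fold (H2ac18) above the lowest on that scale, with 1.31-fold for Car2, 1.27-fold for Slc4a1, 1.99-fold for Gpx1, 2.22-fold for Adra2b and 2.41-fold for Ube2l6.

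Haem synthesis and iron genes followed. Alas2, the red-cell form of the first enzyme of haem synthesis, had 32, 96 and 7 counts in replicates 1-3 and 0 in replicates 4-6, at least 47.8-fold higher (adjusted p = 0.0118). Fech, ferrochelatase, which inserts iron in the last step, had 61, 232 and 16 counts in replicates 1-3 and 3, 0 and 0 in replicates 4-6. The ratio of the sums was 109, with a 95% exact counting interval of 37.1 to 534 (adjusted p = 0.00646). Slc25a37, the mitochondrial iron importer mitoferrin 1, had 202, 811 and 410.3 CPM in replicates 1-3, against 37.3, 0 and 10.8 CPM in replicates 4-6. Its log2 difference of 4.87 (SE 0.81, adjusted p = 0.00646) is a description, since the gene entered the test only through replicates 1-3. Leaving out replicate 2 moved the adjusted p of Alas2 to 0.745, of Fech to 0.151 and of Slc25a37 to 0.0675. All 3 stayed on the same side of zero.

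Fth1, the heavy chain of ferritin and the iron store of most cells (chromosome 19, 9980600 to 9985111), was present in every library. It stood at 1267, 3733 and 1684 CPM in replicates 1, 2 and 3, against 170.4, 85.2 and 203 CPM in replicates 4, 5 and 6. The lowest of replicates 1-3 was above the highest of replicates 4-6, and the log2 difference was 3.84 (SE 0.49, adjusted p = 0.000623). The light chain Ftl1 had 3491, 5316 and 3628 CPM in replicates 1-3 and 1549, 2519 and 1538 CPM in replicates 4-6, again without overlap, but its log2 difference of 1.15 (SE 0.36) did not pass (adjusted p = 0.376, or 0.0412 in a fit of all 12 sorted libraries). Of 7 tested haem and iron genes, 2 rose (Fech and Fth1) and 0 fell, against 0.71% and 0.0323% of all tested genes. Their median log2 difference was 1.15, against -0.01 over all tested genes. Fech, with 3, 0 and 0 counts in replicates 4-6, entered the test only through replicates 1-3. It is also a member of the other red-cell list below. The number that rose is therefore a description only.

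Of the 39 other red-cell genes in the table, 17 were tested. Of these 6 rose (Car2, Slc4a1, Alas2, Slc25a37, Fech and Ube2l6) and 0 fell, against 0.71% and 0.0323% of all tested genes. The median log2 difference was 2.80. Since 6 of the 17 had at most 3 counts in replicates 4-6, the number that rose and the median are a description only. Ube2l6, an enzyme that conjugates ubiquitin-like ISG15, had 41, 79 and 5 counts in replicates 1-3 and 0, 0 and 2 in replicates 4-6, a ratio of sums of 66.4 (95% exact counting interval 18.0 to 554, adjusted p = 0.0259, or 0.937 without replicate 2 and 0.0533 without replicate 6). Others did not pass. Prdx2, a peroxiredoxin abundant in red cells, had 1134, 2502 and 1134 CPM in replicates 1-3 and 884, 1040.3 and 738 CPM in replicates 4-6 (log2 difference 0.85, SE 0.37, adjusted p = 0.799). Bnip3l, which serves mitochondrial removal during red-cell maturation, had a log2 difference of 1.65 (SE 0.44, adjusted p = 0.221), with no overlap of libraries. Tfrc, the transferrin receptor that takes up iron, had 5 to 17 counts in replicates 1-3 and 7 to 22 in replicates 4-6 (log2 difference -0.37, SE 0.78, adjusted p = 0.999). Slc2a1, the glucose transporter GLUT1, went the other way with 0, 7 and 0 counts in replicates 1-3 and 22, 9 and 30 in replicates 4-6 (log2 difference -2.97, SE 1.29, adjusted p = 0.792).

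The other 22 members were too low to test. Of these, 19 had a count in the 6 libraries, and 16 of the 19 had none in double-negative replicates 4-6 nor in any of the 6 AnnexinV-positive libraries. Among the 16 were the transcription factors Klf1 (4, 30 and 9 counts in replicates 1-3), Gata1 (10, 16 and 0) and Tal1 (1, 36 and 4). Against the limit that a count of 0 allows, Klf1 was at least 15.2-fold and Gata1 at least 9.21-fold higher in replicates 1-3.

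Promoters of the called genes are shown because these genes were chosen as higher in the same 3 libraries and the motifs of GATA1 and KLF1 can be read in them. Windows of 250 bases before the annotated start (RefSeq, GRCm38.p6) were found for 15 of the 22 higher genes. The letters searched on both strands were AGATAA or TGATAA for GATA factors and CACCC for KLF1-type factors, and they are printed in capitals. At least 1 window held the GATA letters in 8 of the 15 genes, CACCC in 12 and both in 7; of the 6 globins with a window, 5 held GATA letters and 6 held CACCC. Over all 32851 windows of that length, 16.6% held the GATA letters, 52.0% CACCC and 7.11% both. These shares are per single window, whereas a gene above counted if any of its windows matched, so the units differ. A match is a description of the letters and not a binding site. The windows of an embryonic alpha-type and beta-type globin, the haem enzyme and the highest gene outside the lists read as follows, 5′ to 3′.
Hba-x, chr11:32276350-32276599, plus strand: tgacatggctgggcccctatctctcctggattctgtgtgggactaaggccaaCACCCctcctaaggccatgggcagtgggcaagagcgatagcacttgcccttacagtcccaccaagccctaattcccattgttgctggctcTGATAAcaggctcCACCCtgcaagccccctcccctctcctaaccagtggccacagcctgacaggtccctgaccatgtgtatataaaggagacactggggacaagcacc
Hbb-y, chr7:103853208-103853457, minus strand: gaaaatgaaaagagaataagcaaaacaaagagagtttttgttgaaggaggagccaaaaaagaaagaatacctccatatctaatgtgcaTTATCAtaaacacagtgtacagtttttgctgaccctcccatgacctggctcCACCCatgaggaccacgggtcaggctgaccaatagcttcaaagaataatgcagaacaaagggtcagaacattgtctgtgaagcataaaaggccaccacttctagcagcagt
Alas2, chrX:150547167-150547416, plus strand: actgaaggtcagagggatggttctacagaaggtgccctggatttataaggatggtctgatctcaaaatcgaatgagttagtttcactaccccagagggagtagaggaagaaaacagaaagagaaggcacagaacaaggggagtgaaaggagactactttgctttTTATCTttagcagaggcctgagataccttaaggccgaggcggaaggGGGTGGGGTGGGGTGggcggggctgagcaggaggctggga
Hsd3b6, chr3:98814444-98814693, minus strand: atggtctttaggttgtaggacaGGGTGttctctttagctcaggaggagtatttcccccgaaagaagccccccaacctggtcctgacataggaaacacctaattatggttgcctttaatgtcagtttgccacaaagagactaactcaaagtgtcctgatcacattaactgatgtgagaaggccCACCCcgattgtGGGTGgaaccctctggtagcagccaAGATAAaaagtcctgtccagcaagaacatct

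The 8 higher genes outside the red-cell lists were led by Hsd3b6, a 3-beta-hydroxysteroid dehydrogenase of steroid synthesis (chromosome 3, 98805504 to 98814443). It had 136, 304 and 33 counts in replicates 1-3 and 0 in replicates 4-6 and in all 6 AnnexinV-positive libraries, at least 168-fold higher (adjusted p = 0.000164). It belongs to a family of similar genes, so its share of reads is uncertain. Per 1000 haemoglobin counts it stood at 3.70, 3.07 and 3.05 in replicates 1, 2 and 3. Adra2b, an alpha-2 adrenergic receptor, had 44, 70 and 17 counts, and Ctse, the aspartic protease cathepsin E, had 44, 96 and 11 counts in replicates 1-3. Pkhd1l1, a large fibrocystin-like membrane protein, had 25, 104 and 6 counts there. None of the 3 had a count in replicates 4-6 or in the AnnexinV-positive libraries, and they were at least 46.4-fold, 53.5-fold and 47.8-fold higher (adjusted p = 0.00352, 0.00455 and 0.0184).

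Creg1, a secreted glycoprotein, had 46, 100 and 8 counts, H2ac18, a histone H2A gene with a near-identical copy, 67, 66 and 9, and Lgmn, the lysosomal protease legumain, 21, 51 and 7 counts in replicates 1-3. All 3 had 0 counts in replicates 4-6, and their adjusted p values were 0.00646, 0.00455 and 0.0337. These 3 were not confined to double-negative replicates 1-3, since the AnnexinV-positive libraries summed to 11 Creg1 counts, 26 H2ac18 counts and 31 Lgmn counts. Lgmn is also a macrophage gene, and macrophage markers reached 47 counts in double-negative replicate 1, 1 in replicate 2 and none in replicates 3 to 6; their part in the Lgmn difference was not tested. Without replicate 2 the adjusted p was 0.247 for Creg1, 0.144 for Ctse and 0.944 for Pkhd1l1 and Lgmn. Lgmn also lost its call without replicate 1 (adjusted p = 0.0517), replicate 3 (0.0738) or replicate 6 (0.102), and Pkhd1l1 without replicate 6 (0.0653).

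**Figure D3:**
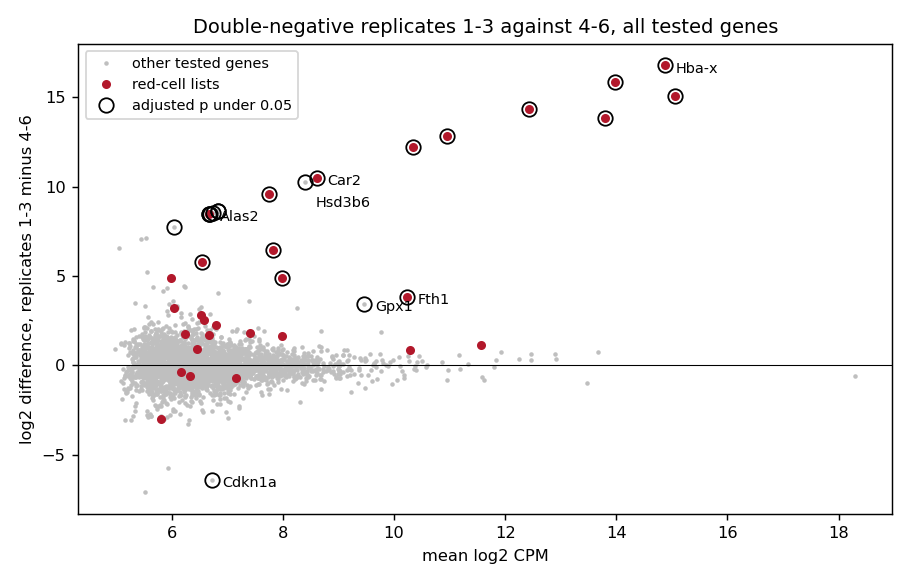
Log2 difference, double-negative replicates 1-3 minus 4-6, against mean log2 CPM for 3097 tested genes, with the red-cell lists in red and the 23 genes past the threshold circled. The circled genes lie far above the cloud, apart from Cdkn1a below it at -6.42.

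Stress genes were few among the calls. Gpx1, glutathione peroxidase 1, which reduces hydrogen peroxide and is abundant in red cells (chromosome 9, 108339080 to 108340342), had 481, 2338 and 1026 CPM in replicates 1, 2 and 3, against 192, 54.8 and 103 CPM in replicates 4, 5 and 6. The sets did not overlap, and the log2 difference was 3.46 (SE 0.59, adjusted p = 0.00787), or 0.0539 without replicate 6. It was the 1 riser among 11 tested oxidative stress genes, of which 0 fell, with a median log2 difference of 0.44. Over all tested genes 0.71% rose and 0.0323% fell. Gclm, of glutathione synthesis, was next with 20, 31 and 9 counts in replicates 1-3 and 0, 6 and 0 in replicates 4-6 (log2 difference 3.06, SE 1.33, adjusted p = 0.792). Prdx1, another peroxiredoxin, had a log2 difference of -0.92 (SE 0.46, adjusted p = 0.868).

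Cdkn1a, which encodes the cell-cycle inhibitor p21 and is a textbook target of p53 (chromosome 17, 29090979 to 29100722), was the single gene that fell. It had 0, 0 and 1 counts in replicates 1, 2 and 3, against 18, 10 and 146 in replicates 4, 5 and 6, and replicate 6 held most of the counts. With 1 count in replicates 1-3 it entered the test only through replicates 4-6, so a difference was built in and its values are a description. The log2 difference was -6.42 (SE 1.29, adjusted p = 0.0317), and the call was lost without replicate 1 (adjusted p = 0.158), without replicate 2 (0.162) and without replicate 6 (0.875). Trp53 itself had 14, 14 and 2 counts in replicates 1-3 and 10, 8 and 3 in replicates 4-6 (log2 difference 0.18, SE 1.18, adjusted p = 1). Of 7 tested p53 pathway genes, 0 rose and 1 fell, against 0.71% and 0.0323% of all tested genes, with a median of -0.35. Mdm2, the p53 ubiquitin ligase, was at -0.49 (SE 0.97) and Plk2 at -1.53 (SE 0.98), both with an adjusted p of 0.999.

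None of the heat shock, unfolded protein or immediate early genes passed. Hspa8, the constitutive HSP70 chaperone, had 638, 619.6 and 539.8 CPM in replicates 1-3 and 1001, 699.6 and 908 CPM in replicates 4-6 (log2 difference -0.53, SE 0.32, adjusted p = 0.994), and Hsp90aa1 had a log2 difference of -0.08 (SE 0.33), whose sign turned to 0.12 on total counts without haemoglobin genes. Of 17 tested heat shock genes 13 were below zero, with a median of -0.24, and of 8 unfolded protein and integrated stress genes 5 were, with a median of -0.40; over all tested genes 50.6% were below zero. The inducible Hspa1a and Hspa1b had no count in the 6 libraries. Of the immediate early genes, which dissociation can induce, Fos had 18, 2 and 0 counts in replicates 1-3 and 4, 0 and 0 in replicates 4-6, Jun had 11, 12 and 0 in replicates 1-3 and 3, 3 and 5 in replicates 4-6, and Atf3 had none in either set. Klf6 had the largest difference of the 3 tested, 2.86 (SE 0.99, adjusted p = 0.502). No interferon response gene had enough counts to be tested.

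Glycolysis and hypoxia genes lay mostly below zero without any call, 10 of 11 with a median of -0.80. Eno1, the glycolytic enzyme enolase, had 38.6, 68.0 and 281 CPM in replicates 1-3, against 634, 316 and 524 CPM in replicates 4-6 (log2 difference -2.08, SE 0.63, adjusted p = 0.364), with no overlap. Eno1 passed in 4 of the alternative settings, among them the fit of all 12 libraries (adjusted p = 0.0376) and the fit without replicate 3 (0.0112). Hif1a, the oxygen-sensing factor, was the exception at 1.03 (SE 0.58, adjusted p = 0.984).

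No neural gene passed the threshold in the fit of the 6 double-negative libraries. Of 19 tested neuronal markers, 0 rose and 0 fell, 13 were above zero, against 49.4% of all tested genes, and the median was 0.31. Dcx, the microtubule protein of migrating neurons, had 659, 472 and 464 CPM in replicates 1-3, against 341, 694 and 376 CPM in replicates 4-6 (log2 difference 0.19, SE 0.38, adjusted p = 0.999). Stmn2, a microtubule regulator of growing axons, had 505, 148 and 367 CPM in replicates 1-3 and 149, 256 and 251 CPM in replicates 4-6, also overlapping. Libraries did not overlap for Tubb3, neuronal beta-tubulin, with 270.1, 276 and 184 CPM in replicates 1-3 and 47.9, 139.9 and 29.7 CPM in replicates 4-6 (log2 difference 1.80, SE 0.62, adjusted p = 0.502). The same held for Bcl11b, a factor of deep-layer neurons (1.62, SE 0.55, adjusted p = 0.493), and in the other direction for Nhlh2, a factor of early neurons (-2.57, SE 0.84, adjusted p = 0.445). Summed over the 25 neuronal markers, the level in CPM outside haemoglobin ran from 3216 to 5609 in replicates 1-3 and from 1995 to 4703 in replicates 4-6.

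Of 17 tested radial glia and progenitor markers, 0 rose and 0 fell, 13 were below zero, against 50.6% of all tested genes, and the median was -0.29. In 5 of the 17 every library of replicates 1-3 was below every library of replicates 4-6, against 6.68% of all tested genes. The reverse held in 0, against 7.17%. Sox2, the neural stem cell factor, had 122, 87.9 and 140.4 CPM in replicates 1-3, against 149, 42.6 and 168 CPM in replicates 4-6, and its log2 difference of -0.07 (SE 0.62) turned to 0.09 on total counts without haemoglobin genes. Vim, the intermediate filament of radial glia, had 98.0, 116 and 43.2 CPM in replicates 1-3 and 303, 237 and 319 CPM in replicates 4-6, with no overlap (log2 difference -1.68, SE 0.50, adjusted p = 0.355, or 0.0376 in the fit of all 12 libraries). The summed list was 1447 to 2891 CPM outside haemoglobin in replicates 1-3 and 1579 to 3359 in replicates 4-6. Intermediate progenitor markers had 6 of 7 above zero and a median of 0.70, and Eomes, their defining factor, had 7, 29 and 16 counts in replicates 1-3 and 0, 28 and 6 in replicates 4-6.

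Rarer neural types had few counts. Reln, the secreted reelin of Cajal-Retzius cells, had 53.4, 3.997 and 43.2 CPM in replicates 1-3, against 202, 103 and 289 CPM in replicates 4-6 (log2 difference -2.58, SE 0.79, adjusted p = 0.366), with no overlap. Ebf1, the other tested gene of that list, lay on the other side of zero, with 108, 22 and 41 counts in replicates 1-3 and 53, 8 and 14 in replicates 4-6 (log2 difference 1.20, SE 0.76, adjusted p = 0.999). Among members too low to test, Trp73 had 3 summed counts in replicates 1-3 against 28 in replicates 4-6, Ebf2 6 against 46 and Rspo3 4 against 82. Replicates 4, 5 and 6 held 14, 0 and 14 counts of Trp73, 23, 0 and 23 of Ebf2, and 6, 0 and 76 of Rspo3. Lmx1a (8 against 0), Cacna2d2 (6 against 5) and Wnt2b (1 against 0) went the other way. The summed list overlapped, 261 to 672 CPM outside haemoglobin in replicates 1-3 and 176 to 861 in replicates 4-6. Gad2, the GABA-synthesising enzyme of inhibitory neurons, had 324, 99.9 and 518 CPM in replicates 1-3 and 101, 48.7 and 86.5 CPM in replicates 4-6 (log2 difference 1.95, SE 0.61, adjusted p = 0.378), where replicates 2 and 4 overlap. All 4 tested ventral forebrain markers were above zero, with a median of 1.64, and none passed.

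**Figure D4:**
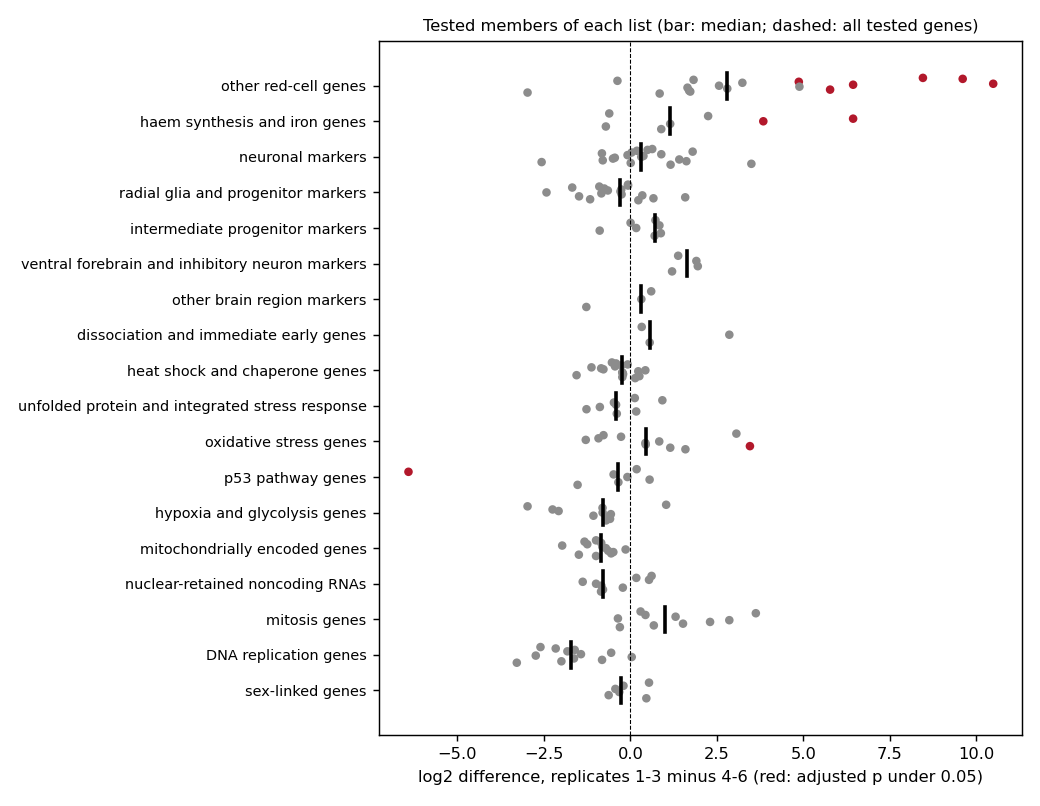
Log2 difference, double-negative replicates 1-3 minus 4-6, of each tested member of 18 gene lists without the globins (points, red where the adjusted p is under 0.05), with list medians as bars and the median of all tested genes dashed. Red points sit in the red-cell, haem, oxidative stress and p53 lists only; all neural points are grey.

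DNA replication and mitosis genes lay mostly on opposite sides of zero, and none passed in the fit of the 6 libraries. Of 12 tested DNA replication genes, 11 were below zero, the median was -1.73 and 7 had every library of replicates 1-3 below every library of replicates 4-6, against 6.68% of all tested genes. Mcm4, a subunit of the replicative helicase, had 2.97, 40.0 and 32.4 CPM in replicates 1-3 and 149, 79.1 and 205 CPM in replicates 4-6 (log2 difference -2.60, SE 0.90, adjusted p = 0.502). Uhrf1, which maintains DNA methylation at the fork, was at -3.28 (SE 1.04, adjusted p = 0.388, or 0.0412 in the fit of all 12 libraries), and Pcna, the sliding clamp, at -1.82 (SE 0.72, adjusted p = 0.68). The summed list did not overlap, 414 to 1169 CPM outside haemoglobin in replicates 1-3 and 1329 to 2107 in replicates 4-6. Of 10 tested mitosis genes, 8 were above zero with a median of 0.99; with haemoglobin genes out of the TMM totals 8 were tested, 6 were above zero and the median was 0.55. Replicate 3 did not follow replicates 1 and 2 there: Top2a, the mitotic topoisomerase, had 91, 144 and 1 counts in replicates 1-3, against 12, 2 and 0 in replicates 4-6 (log2 difference 3.63, SE 1.16, adjusted p = 0.399, or 0.00167 with no filter on low counts).

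The mitochondrial and rRNA shares of counts did not overlap between the sets, but 3 against 3 libraries cannot pass the threshold. The 13 tested mitochondrially encoded genes were all below zero, with a median of -0.84, although on total counts without haemoglobin genes 1 of them was above; 0 passed, and 8 had every library of replicates 1-3 below every library of replicates 4-6, against 6.68% of all tested genes. The rRNA gene mt-Rnr1 passed in the fit of all 12 libraries (log2 difference -1.46, adjusted p = 0.0473). The 15 listed mitochondrial genes took 1.60% to 2.31% of counts outside haemoglobin in replicates 1-3 and 2.43% to 3.94% in replicates 4-6 (exact two-sided permutation test, p = 0.1, the smallest 3 against 3 allows). The same share was 2.38% to 3.04% in AnnexinV-positive replicates 1-3 and 2.47% to 3.04% in AnnexinV-positive replicates 4-6 (exact permutation p = 1). CT010467.1, an rRNA gene, made up 26.1% to 32.3% of counts outside haemoglobin in replicates 1-3 and 37.7% to 43.6% in replicates 4-6 (exact permutation p = 0.1), and 21.5% to 30.1% in AnnexinV-positive replicates 1-3 against 23.1% to 41.3% in AnnexinV-positive replicates 4-6 (p = 0.2). Nuclear-retained RNAs had 6 of 9 below zero; Malat1, the most abundant, had a log2 difference of 0.61 (SE 0.39, adjusted p = 0.999). The part of RNA content in any gene's difference was not tested.

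Most markers of other cells had no count. Of 20 vessel and pericyte markers, 13 had no count in the 6 double-negative libraries, among them Pecam1, Cdh5 and Kdr, which mark vessel walls. The summed CPM outside haemoglobin ran from 0 to 283 in replicates 1-3 and from 11.4 to 57.6 in replicates 4-6; replicate 2 was highest through the pericyte gene Rgs5, with 39 counts. Of 20 macrophage and other blood cell markers, 14 had no count, Ptprc, Csf1r and Spi1 included, and the sum was 174, 4.49 and 0 in replicates 1, 2 and 3 and 0 in replicates 4-6. C1qb and C1qc, complement genes of macrophages, gave 15 and 14 of the 47 counts in replicate 1. Mesenchyme markers reached 12.9 to 44.9 in replicates 1-3 and 34.1 to 192 in replicates 4-6, with 14 of 20 at zero, all 4 of the list's collagen genes included. Surface ectoderm markers summed to 0 in replicates 1-3 and to 28.4 to 226 in replicates 4-6, with 15 of 18 at zero. Of 6 tested sex-linked genes, 0 passed.

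Taking the haemoglobin genes out of the library total under TMM scaling changed no call. The same 23 genes passed with and without them, and no log2 difference of the 2881 genes tested in both moved by more than 0.0407. Little change was possible there, since the haemoglobin genes stayed in the fit and TMM factors were computed again on the new totals. The factor of replicate 2 went from 0.778 to 1.004, which offset its smaller total. The unchanged calls are therefore no test of what the haemoglobin genes do to the result. With fewer genes tested, the mitosis median of 0.99 became 0.55 and that of nuclear-retained RNAs went to -0.50, against -0.79 with haemoglobin genes. On plain total counts the choice shifted all genes: the median log2 difference of all tested genes was -0.11 with haemoglobin genes in the total and 0.20 without them, a shift of 0.30. The neuronal median was 0.32 and 0.50 under those totals and the radial glia median -0.44 and -0.14. Relative to all tested genes they were 0.43 and 0.30 for neuronal markers and -0.33 on either total for radial glia. The 23 genes passed under all 4 totals, and 1 more passed on total counts with or without haemoglobin genes. The median correlation of log2 CPM between libraries was 0.586 within sets and 0.459 between sets over all 3097 tested genes, and 0.555 and 0.506 over the 3067 genes outside the red-cell lists, given as a description.

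**Figure D5:**
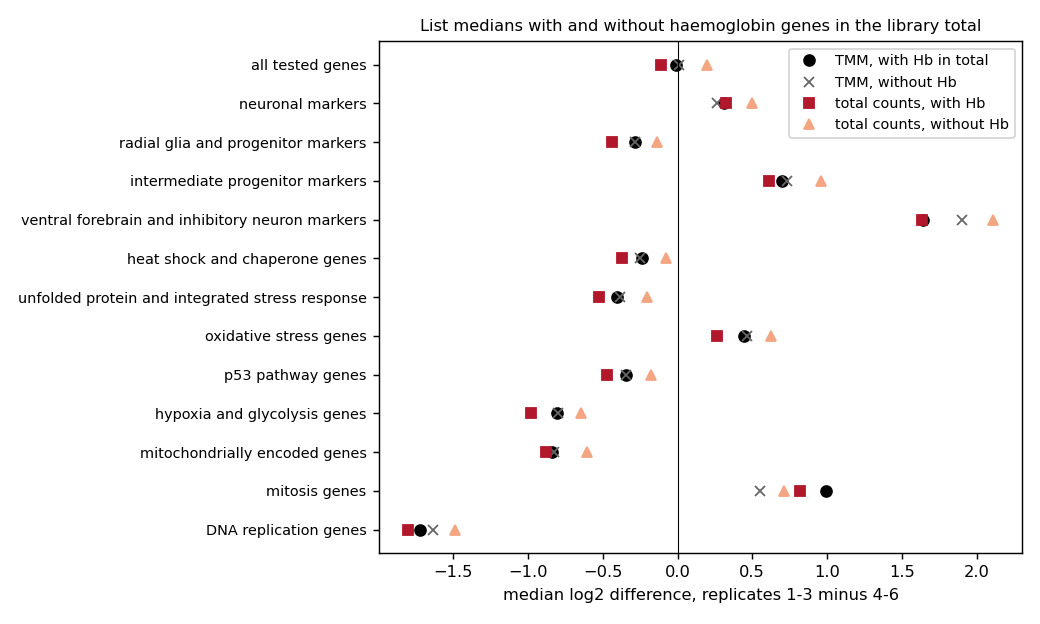
Median log2 difference, double-negative replicates 1-3 minus 4-6, of 13 gene groups under 4 library totals: TMM and total counts, each with and without haemoglobin genes (Hb). The TMM medians stay close for most groups, and on total counts the 2 medians are offset, by 0.30 for all tested genes.

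Whether the same sets differ in the AnnexinV-positive gate was tested in a fit of all 12 libraries with 6084 genes. There 35 genes separated the double-negative sets (0.575%), 27 higher and 8 lower, and 9 separated the AnnexinV-positive sets (0.148%), 6 higher and 3 lower. Genes past the threshold in both gates were Cdkn1a and the predicted gene Gm15772. Cdkn1a had 0, 0 and 0 counts in AnnexinV-positive replicates 1-3, against 19, 5 and 84 in AnnexinV-positive replicates 4-6 (log2 difference -7.77, SE 1.56, adjusted p = 0.0206). With no count in AnnexinV-positive replicates 1-3 and 1 in double-negative replicates 1-3, it entered that fit only through replicates 4-6, so these values are a description. The difference between gates did not pass (double-negative minus AnnexinV-positive 1.24, SE 1.42, adjusted p = 0.997).

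The difference itself differed between gates for 4 genes, 0.0657% of those tested, with 400 at an unadjusted p under 0.05. Fth1 had counts of 67, 57 and 91 in AnnexinV-positive replicates 1-3 and 102, 190 and 175 in AnnexinV-positive replicates 4-6, and the double-negative difference exceeded the AnnexinV-positive one by a log2 value of 4.51 (SE 0.55, adjusted p = 8.56e-06). Gpx1 exceeded it by 4.04 (SE 0.72, adjusted p = 0.0181), and lost that call when any of double-negative replicates 5 or 6 or AnnexinV-positive replicates 1, 4 or 6 was left out (adjusted p 0.0554 to 0.198). Car2 had 0 counts in AnnexinV-positive replicates 1-3 and 0, 0 and 4 in AnnexinV-positive replicates 4-6 (adjusted p = 0.00402, a call that rests on AnnexinV-positive replicate 6, without which it was 0.9999). With no count in double-negative replicates 4-6 either, Car2 passed the filter only through double-negative replicates 1-3, so its values are a description. Fth1 and Gpx1 were already called higher in the double-negative sets, which were chosen with their haemoglobin difference known. Their p-values here may not be independent of that choice. Robo2, a Slit receptor of growing axons, went the other way: it had 57, 22 and 13 counts in double-negative replicates 1-3 and 35, 17 and 45 in double-negative replicates 4-6, but 29, 45 and 93 in AnnexinV-positive replicates 1-3 and 0, 2 and 1 in AnnexinV-positive replicates 4-6. The difference of differences was -5.95 (SE 1.01, adjusted p = 0.00328). None of the globins passed in that contrast. Hbb-y was at 12.90 (SE 2.50, adjusted p = 0.182) and Hba-x at 15.83 (SE 3.65, adjusted p = 0.344). The other globins tested had standard errors far larger than their values and give no usable difference.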

How the data were processed

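The deposited count table holds estimated counts per gene, which the file calls raw counts, and was rounded to whole numbers; a whole-count table had been assumed. The second table, named TPM by the authors, does not sum to a constant and was treated as a deposited score, used in alternatives only. Trimmomatic, STAR, featureCounts and Seurat 4, and the builds GRCm38 and mm10, are named in the submitters' processing notes with no role; no annotation, strand setting or source of the fractions is given in the sources used here, so overlapping and near-identical genes are uncertain.

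The main test was edgeR 4.0.16 (R 4.3.3; quasi-likelihood, robust, two-sided) on 6 libraries after filterByExpr (minimum count 10, minimum total 15) and TMM scaling, adjusted by Benjamini-Hochberg over all tested genes at 0.05. Differences are replicates 1-3 minus 4-6, and the SE is the log2 difference over the square root of F. Scripts were tested on simulated data. Members and the 25 gene lists (525 of 528 entries in the table) were chosen with earlier results of these data known. Named genes are all globins, up to 12 with the largest called difference each way, the remaining called genes, up to 4 members per list by smallest p and a fixed set; others, such as low red-cell genes, other cells' markers and Robo2, were named after their values were seen. Some genes of the fixed set and lists are not reported here. A count of 0 allows up to 3 counts. Gene coordinates are GENCODE M21 on GRCm38. Alternatives used other totals and scalings, other filters, DESeq2 1.42.0, limma 3.58.1 on the score table, all 12 libraries, and libraries left out.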

Additional observations from a re-analysis of the deposited data

Results flagged for a closer look

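For 4 genes the double-negative difference, replicates 1-3 minus 4-6, departed from the same difference in the AnnexinV-positive gate by edgeR's test of the difference itself. Fth1 departed by 4.51 on the log2 scale, with 1517 counts in double-negative replicates 1-3 and 121 in 4-6. Gpx1 departed by 4.04 and Car2 by 14.06. The Car2 value rests on AnnexinV-positive counts of 0 to 4, so its size has little meaning. Car2 passed the filter only through double-negative replicates 1-3, so its value is a description. Robo2 departed by -5.95, with a set difference of -0.02 (SE 0.60) in double-negative libraries and 5.92 (SE 0.81) in AnnexinV-positive libraries.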

How the results depend on the processing

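Of the 23 genes past the threshold, 8 remained in every alternative in which they were tested (7 in 19, H2ac18 in 18), and no called gene changed sign. Of 73 uncalled named genes, 6 passed somewhere, in 10 values in all: Eno1, Vim, Uhrf1, Ftl1 and mt-Rnr1 in the 12-library fit, and Eno1, Ftl1 and Top2a with no filter; Eno1 also passed without replicate 3, alone or with replicate 5. Hba-x, Hba-a1, Hba-a2 and Hbb-y lost their calls with no filter on low counts. The count was 36 with DESeq2, 35 with all 12 libraries in 1 fit and 33 with no filter, where 28 were higher and 5 lower. It was 13 without the 2 libraries with the fewest detected genes (replicates 3 and 5, chosen after seeing the data), with 12 higher. Leaving out 1 double-negative library gave 16 to 27 genes, 14 to 25 higher and 0 to 2 lower; without replicate 2, 14 of the 23 genes were still called. Lower genes numbered 2 on total counts with haemoglobin genes, 2 without them and without the rRNA gene, 3 with DESeq2 and 8 in the 12-library fit, against 1. The cause of these changes was not tested. No paired analysis was possible for the double-negative sets because they share no replicate number. For the difference between gates, a replicate block gave 10 genes against 4, with Hba-x and Hbb-y among them. Equal numbers did not deviate together (correlations of deviations -0.02 to 0.02, and 3 of 12 libraries correlated best with their own number). With so few libraries this cannot show whether equal numbers share an embryo, pool or sort, and the labels do not say. Leaving out 1 of 12 libraries gave 3 to 10 genes there, 10 without double-negative replicate 2 and 7 without AnnexinV-positive replicate 4.

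Some uncalled values changed sign, not only those near zero. In the main fit Miat was at -0.84 (SE 0.71), Tcf7l2 at 0.60 (SE 0.85) and Uty at -0.43 (SE 0.91). Uty was 0.21 and 0.16 on the TPM table with pseudocounts of 1 and 5, and Sox2 0.16 and 0.14. Total counts without haemoglobin genes gave 0.12 for Hsp90aa1, 0.089 for Sox2, 0.15 for Robo2 and 0.091 for Pax6, and total counts with them gave -0.16 for Atf4. Without the 2 libraries with the fewest genes, Miat was 0.22 and Atf4 -0.012. Leaving out 1 library gave -0.68 to 1.88 for Tcf7l2, -1.04 to 0.59 for Uty, -0.16 to 1.03 for Mki67, -0.17 to 0.13 for Hsp90aa1, -0.71 to 1.78 for Atf4, -0.45 to 0.32 for Sox2, -0.25 to 0.24 for Robo2 and -0.54 to 0.74 for Pax6. Depth limits low genes most in replicate 3, where 1 count is worth 10.8 CPM.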
